A study of Mus musculus with 2 samples.

Results

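Gata3 ChIP-seq reads over the *Gata3* gene itself and 1 Mb of chromosome 2 on either side were described in TH2 cells, the T helper subset that makes type-2 cytokines. The gene is 1 of 55413 genes in the GENCODE M21 annotation of GRCm38, and it was chosen by name. It lies on the minus strand at chr2:9857078-9890034 (ENSMUSG00000015619.10, 32957 bp) and has 6 annotated transcripts. The surrounding region, chr2:8857078-10890034, was divided into 10164 complete 200-bp windows, of 13627597 in the genome. Within it lay 67 of the 23806 peaks that were called in both libraries, termed shared peaks.

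The series holds 2 Gata3 ChIP libraries, replicates 1 and 2 of a single condition, made from TH2 cells derived in culture. In the paper's TH2 cultures, naive CD4+ T cells of the spleen were activated with IL-4 and an antibody against IFN-γ present. Chromatin of cells crosslinked for 5 min and sheared to about 500 bp was precipitated with a Gata3 antibody and tagmented on the beads (ChIPmentation, in which a transposase adds the sequencing adaptors). The labels give no genotype, strain, age or culture time, do not say whether the libraries came from separate cultures or animals, and name ILC2, another type-2 lymphocyte, in the extraction protocol. The reads of each library served as its own background, since neither an input nor an IgG control was used, and any difference between the libraries measures the spread between these 2 samples, which may be technical. With no expression measured, the cell type was checked only by the T cell receptor locus, where αβ T cells delete the segments from *Trdd1* to *Trdj2*. This stretch of 23370 bp held 7 reads in replicate 1 and 4 reads in replicate 2, 1.27% of the read density of its flanks in either library. These segments were thus nearly free of reads in both libraries.

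Gata3 is a zinc-finger transcription factor of the GATA family that binds the letters AGATA or TGATA when followed by A or G, here called GATA motifs. It is required for T cell development in the thymus, and in CD4+ T cells IL-4 acting through Stat6 raises its expression and drives the TH2 fate. Gata3 is known to act on its own gene, and an enhancer that serves T and NK cells is known to lie about 280 kb beyond its 3′ end, in sequence with no protein-coding gene.

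Positions below are given in kb from the principal start site, that of the principal transcript (6 exons, start at 9878600). A plus sign marks positions downstream in the direction of transcription, towards lower coordinates, and a minus sign marks positions upstream. The gene body extends upstream of this site because other transcripts begin 9.18 and 11.4 kb before it. The level of a peak is its RPM, the reads in the 200-bp window at the summit per 1000000 reads of the library. Height is the lower RPM of the 2 libraries. Intervals are 95% exact Poisson intervals and cover counting error only.

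The sequences under 9 of the peaks are shown, because they include the tallest peaks near and far from the gene and differ in whether a GATA motif lies at the summit. Each is the 200 bp around the replicate 1 summit, from the plus strand of GRCm38 (RefSeq assembly). Capitals mark GATA motifs on either strand, so that a motif on the minus strand reads as its reverse complement (TTATCT for AGATAA), and at +309.4 kb they also mark the AP-1 motif TGACTCA. None of these windows overlaps an annotated exon.
+18.1 kb, chr2:9860351-9860550, intron 5 of *Gata3*: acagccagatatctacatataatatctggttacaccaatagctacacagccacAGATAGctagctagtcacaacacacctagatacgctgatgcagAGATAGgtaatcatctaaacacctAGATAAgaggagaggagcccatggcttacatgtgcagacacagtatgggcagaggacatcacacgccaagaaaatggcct
-0.8 kb, chr2:9879301-9879500, upstream of the principal start: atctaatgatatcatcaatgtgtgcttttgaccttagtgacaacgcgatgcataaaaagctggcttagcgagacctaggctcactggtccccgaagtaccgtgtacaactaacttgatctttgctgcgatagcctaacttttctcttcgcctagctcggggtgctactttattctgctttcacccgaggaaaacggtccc
+313.9 kb, chr2:9564601-9564800, far downstream enhancer interval: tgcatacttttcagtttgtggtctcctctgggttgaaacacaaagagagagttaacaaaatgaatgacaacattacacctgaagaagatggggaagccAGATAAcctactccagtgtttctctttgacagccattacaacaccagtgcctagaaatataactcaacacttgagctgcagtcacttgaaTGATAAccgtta
+309.4 kb, chr2:9569101-9569300, far downstream enhancer interval: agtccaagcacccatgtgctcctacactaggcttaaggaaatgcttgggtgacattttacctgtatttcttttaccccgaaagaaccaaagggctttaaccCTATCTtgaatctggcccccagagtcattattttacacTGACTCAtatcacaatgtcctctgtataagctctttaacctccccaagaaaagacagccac
+500.4 kb, chr2:9378101-9378300, intron of *Gm13219*: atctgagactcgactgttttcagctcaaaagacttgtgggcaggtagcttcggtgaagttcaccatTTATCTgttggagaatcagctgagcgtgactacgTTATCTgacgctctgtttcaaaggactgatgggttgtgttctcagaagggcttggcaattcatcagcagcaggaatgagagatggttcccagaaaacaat
+737.1 kb, chr2:9141401-9141600, intergenic: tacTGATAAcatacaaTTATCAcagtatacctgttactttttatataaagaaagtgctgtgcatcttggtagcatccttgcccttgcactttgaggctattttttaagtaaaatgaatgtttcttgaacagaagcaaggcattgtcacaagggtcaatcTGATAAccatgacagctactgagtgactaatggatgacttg
+1001.5 kb, chr2:8877001-8877200, intergenic: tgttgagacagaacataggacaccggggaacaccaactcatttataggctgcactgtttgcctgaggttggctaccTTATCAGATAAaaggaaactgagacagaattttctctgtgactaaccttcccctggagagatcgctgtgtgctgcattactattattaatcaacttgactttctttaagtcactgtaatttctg
+1013.1 kb, chr2:8865401-8865600, intergenic: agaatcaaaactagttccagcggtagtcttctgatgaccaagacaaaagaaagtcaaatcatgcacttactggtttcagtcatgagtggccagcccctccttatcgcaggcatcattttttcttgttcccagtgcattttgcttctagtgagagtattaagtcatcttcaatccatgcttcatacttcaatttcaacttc
-119.2 kb, chr2:9997651-9997850, intron of *Taf3*: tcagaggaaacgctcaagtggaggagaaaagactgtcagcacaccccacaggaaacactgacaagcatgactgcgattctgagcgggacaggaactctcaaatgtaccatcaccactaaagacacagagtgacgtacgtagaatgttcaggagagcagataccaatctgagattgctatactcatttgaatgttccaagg

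In the gene body, Gata3 reads were several times denser than in the genome at large, and 3 shared peaks lay within it. Replicate 1 held 2093 reads over the gene, 4.27-fold over the library mean (interval 4.09 to 4.46), and replicate 2 held 1117 reads, 3.70-fold over its mean (3.49 to 3.92). The mean was 3.99 ± 0.405-fold (SD, n = 2), and the 2 intervals did not overlap. Among 21938 protein-coding genes, 238 (1.08%) reached 3.70-fold in both libraries, against a median of 1.29-fold. Of the 2283 genes within 20% of its length, 11 (0.482%) did so. A count of 3 shared peaks in the body was less unusual: 6.50% of all protein-coding genes and 64 (2.80%) of the genes of like length had as many. For reference, 29.4% of protein-coding genes had any shared peak in the body and 17.2% had any within 2 kb of a transcript start, and *Gata3* had both.

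The peak nearest the principal start had its summit at 9879400 in both libraries, 0.8 kb upstream and inside an intron of the longer transcripts. It held 81 reads in replicate 1 (2.0 RPM, interval 1.59 to 2.49) and 43 reads in replicate 2 (1.72 RPM, 1.25 to 2.32). These levels overlapped within counting error. Against the local background, the highest of the library mean and the means of the surrounding 5 kb and 10 kb, it rose 3.91-fold (one-sided exact Poisson p = 9.8e-24) and 4.13-fold (p = 3.6e-14, same exact test). No GATA motif lay within 100 bp of the summit. The window also lies within 2 kb of the start of 4930412O13Rik, a protein-coding gene that overlaps the *Gata3* body on the opposite strand, and reads of ChIP cannot be assigned to either gene.

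In intron 4, 81 reads in replicate 1 (2.0 RPM) and 44 reads in replicate 2 (1.76 RPM) gave a peak 10.9 kb downstream, with a mean of 1.88 ± 0.167 RPM (SD, n = 2). Its folds over that background were 3.92 and 4.55 (exact Poisson test, one-sided, p = 8.7e-24 and 7.2e-16). The summits of the libraries stood at 9867650 and 9867400, and the peak was not called shared when summits had to lie within 100 bp. This peak too had no GATA motif within 100 bp of its replicate 1 summit, and the surroundings of the replicate 2 summit were not searched.

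In intron 5, the peak at +18.1 kb was the tallest in the body. It held 108 reads in replicate 1 (2.67 RPM, interval 2.19 to 3.22) and 45 reads in replicate 2 (1.80 RPM, 1.32 to 2.41), which is 6.54 and 5.26 times that background (exact Poisson test, one-sided, p = 2.1e-50 and 1.8e-18). The window shown above has 3 GATA motifs, AGATAG at 9860404, AGATAG at 9860447 and AGATAA at 9860471, the middle one centred on the summit. Over the whole peak replicate 2 was lower by more than counting error (two-sided exact binomial test, adjusted p = 0.0062 over all shared peaks). This test compares 1 library with 1 library, and the call was lost once the excess spread between the libraries was allowed for. All 3 body peaks stood between the 86.6 and the 87.9 percentile of shared peaks by height.

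The density was not confined to the peaks. Intron 5 as a whole was 5.96-fold and intron 4 was 5.32-fold over the mean in replicate 1, and they were 4.82-fold and 4.45-fold in replicate 2. Much of this lay in their peaks, which in replicate 1 held 258 of 393 reads in intron 5 and 265 of 438 in intron 4. In replicate 2 they held 106 of 196 and 133 of 226 reads. Introns 2 and 3, which held no shared peak, still reached 4.47-fold and 2.84-fold in replicate 1 and 4.01-fold and 2.97-fold in replicate 2. The last exon held 44 reads in replicate 1 (1.88-fold) and 31 reads in replicate 2 (2.15-fold). The shortest exons held as few as 5 reads in replicate 1 and 2 reads in replicate 2, too few to order the exons in either library.

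**Figure D1:**
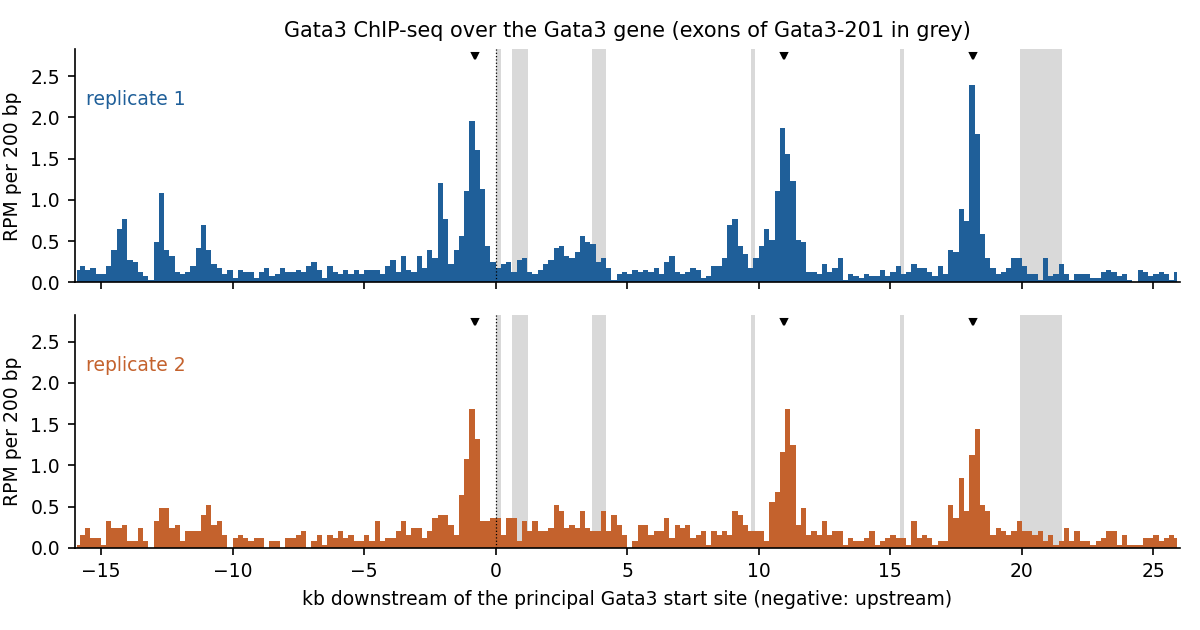
RPM in 200-bp windows against distance from the principal *Gata3* start site in kb, for replicate 1 (top) and replicate 2 (bottom). Grey bands are the exons of the principal transcript and triangles the 3 shared peaks, at 0.8 kb upstream and at 10.9 and 18.1 kb downstream, which stand above the rest of the gene in both libraries.

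The promoter itself carried reads but no peak of its own. The RefSeq promoter window, chr2:9878551-9878850, held 14 reads in replicate 1 (3.14-fold over the mean) and 13 reads in replicate 2 (4.73-fold). It is rich in G and C (67.3%) and has a single GATA motif, TGATAG, 36 bases after the start. Of 32851 RefSeq promoter windows of this length, 29.8% hold a GATA motif. The nearest shared peak beyond the annotated gene, at -19.4 kb and 8016 bp upstream of the first annotated start, held 37 reads in replicate 1 (0.913 RPM) and 18 reads in replicate 2 (0.721 RPM), with a TGATAG 40 bp from the summit.

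Across the whole region, shared peaks were crowded on the downstream side. There were 50 within the downstream Mb, 3 in the gene body and 14 within the upstream Mb, and they touched 273 of 10164 windows (2.69%), against 0.688% of all windows in the genome. These windows held 20.02% and 18.2% of the region's reads in replicates 1 and 2. Of 21938 protein-coding genes, 16 (0.0729%) had 67 or more shared peaks within 1 Mb, and the median was 25. *Gata3* was 1 of the 16, which also included *Sox5*, *Rabgap1l*, *Myc*, *Inpp4b* and the neighbours *Il3* and *Csf2*. The read density of the downstream Mb was 2.05-fold over the mean in replicate 1 and 1.86-fold in replicate 2, against 1.32-fold and 1.21-fold for the upstream Mb. The downstream Mb was the denser side in both libraries, and the counting intervals of the 2 sides did not overlap in either.

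**Figure D2:**
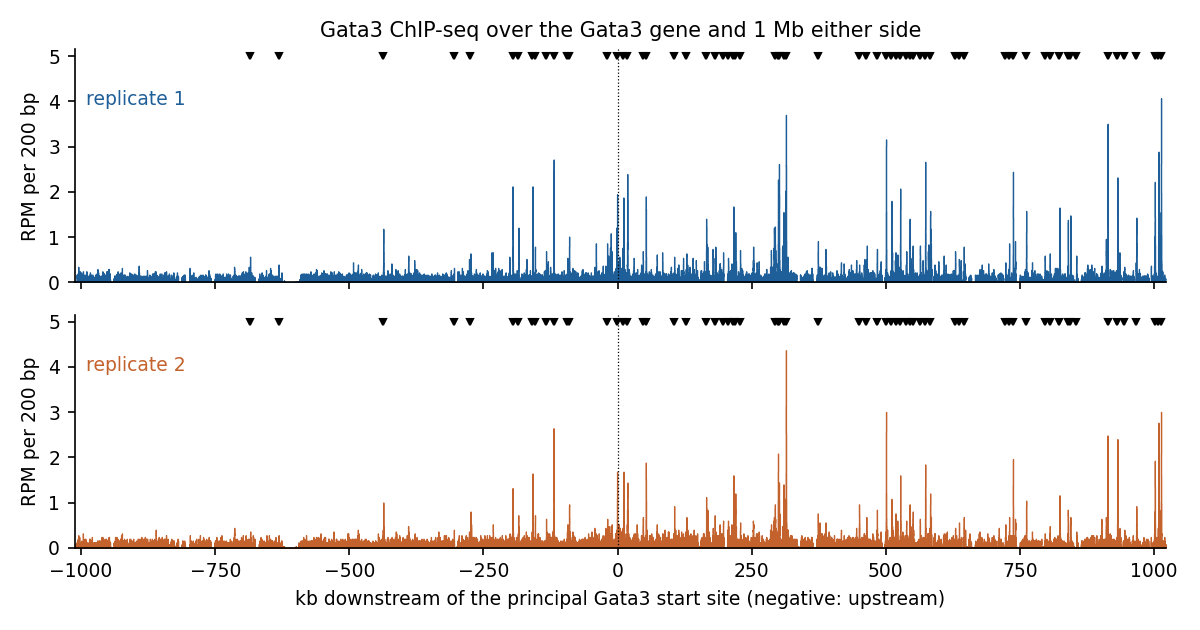
RPM in 200-bp windows against distance from the principal *Gata3* start site in kb, for replicate 1 (top) and replicate 2 (bottom), with triangles at the 67 shared peaks. The tall columns recur at the same distances in both libraries, mostly downstream, and few lie beyond 300 kb upstream.

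The far downstream enhancer interval, taken as 260 to 300 kb beyond the 3′ end of the gene, was the densest of the parts examined that are as long as the gene or longer. It held 3191 reads in replicate 1 (5.37-fold over the mean, interval 5.18 to 5.56) and 1833 reads in replicate 2 (5.00-fold, 4.78 to 5.24). The mean of 5.19 ± 0.257-fold (SD, n = 2) lay above the 3.99-fold of the gene body, and the interval was the denser of the 2 in each library with no overlap of counting intervals. Its 5 shared peaks lay within 20650 bp. Of 23806 shared summits in the genome, 48 (0.202%) begin a span of this length with as many. The length was set by these same 5 peaks, so the share is a description and not a measure of rarity.

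The peaks nearest the 280 kb given above for the known enhancer were those at +300.9 kb (279 kb beyond the 3′ end) and +299.1 kb (278 kb). The peak at +313.9 kb, 292 kb beyond the 3′ end, was the tallest of the region by height. It held 150 reads in replicate 1 (3.70 RPM, interval 3.13 to 4.35) and 110 reads in replicate 2 (4.41 RPM, 3.62 to 5.31), and was the highest of the 67 in replicate 2. It stood at the 98.6 percentile of all shared peaks. Its folds were 4.62 and 5.30 (exact Poisson test, one-sided, p = 9.7e-51 and 5.9e-43) over a local background that includes the peak's own reads. Over the library means they were 50.5-fold and 60.1-fold. An AGATAA begins at 9564699, 1 bp before the summit, and a TGATAA at 9564789. Around it, 2400 bp held at least 5-fold the library mean in both libraries without a break, the longest of 16 such stretches of 1000 bp or more in the region. The genome held 4264 such stretches.

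The other 4 peaks of the interval each held fewer reads. At +299.1 kb there were 92 reads in replicate 1 (2.27 RPM) and 56 reads in replicate 2 (2.24 RPM), with an AGATAA 48 bp from the summit, and the mean was 2.26 ± 0.020 RPM (SD, n = 2). At +309.4 kb there were 75 reads (1.85 RPM) and 47 reads (1.88 RPM), with the GATA motif CTATCT 5 bp from the summit and the AP-1 motif TGACTCA nearby. AP-1 is a dimer of Fos and Jun proteins induced by T cell receptor signals.

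At +300.9 kb the libraries differed beyond counting error, though not once their excess spread was allowed for. This peak held 117 reads in replicate 1 (2.89 RPM, interval 2.39 to 3.46) and 40 reads in replicate 2 (1.60 RPM, 1.14 to 2.18), with an AGATAA 24 bp from the summit, and over the peak replicate 2 was lower (two-sided exact binomial test, adjusted p = 0.00064). At +293.2 kb, 56 reads (1.38 RPM) and 29 reads (1.16 RPM) gave the lowest peak of the 5, which was also the only one with no GATA motif within 100 bp. It lay 2.58-fold and 2.63-fold over the local background. When 5-fold over the local background was required, 0 of these 5 peaks and 1 of the 3 in the gene body (intron 5) were called.

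**Figure D3:**
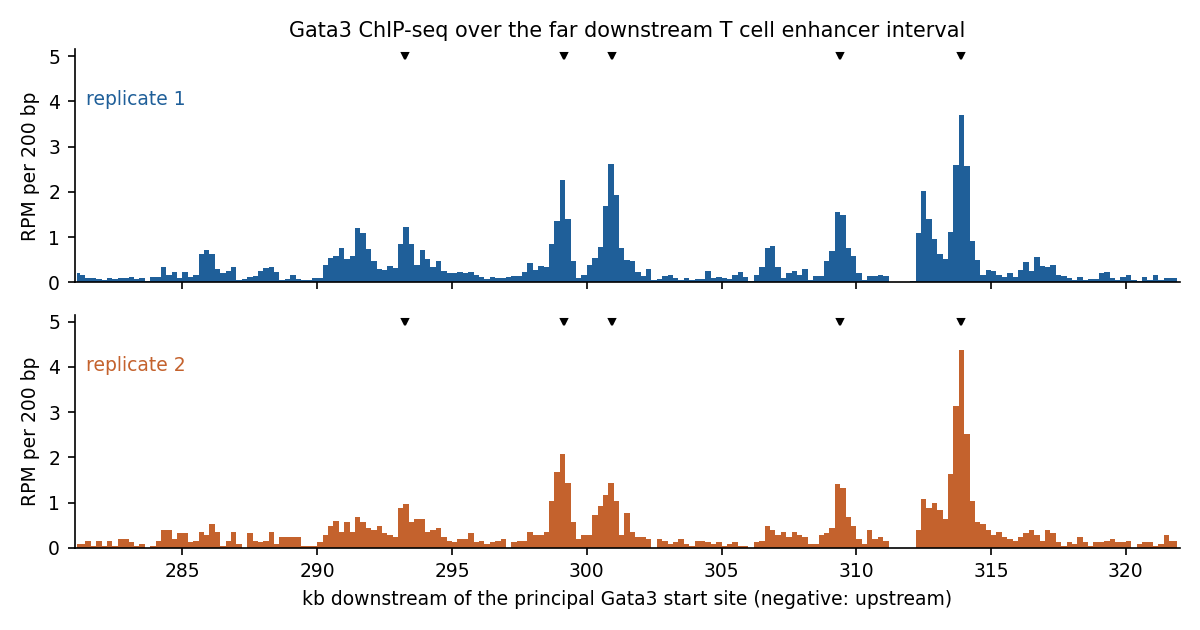
RPM in 200-bp windows against distance from the principal *Gata3* start site in kb, for replicate 1 (top) and replicate 2 (bottom), with triangles at the 5 shared peaks. The column at 313.9 kb is the tallest in both libraries, and the peak at 300.9 kb is higher in replicate 1 than in replicate 2.

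Beyond this interval, 5 of the 10 tallest peaks of the region lay more than 900 kb downstream and 1 lay at +500.4 kb, within an intron of the lincRNA gene *Gm13219*. The peak at +500.4 kb was second by height, with 137 reads in replicate 1 (3.38 RPM, interval 2.84 to 4.0) and 83 reads in replicate 2 (3.33 RPM, 2.65 to 4.12). In both libraries its interval overlapped that of the tallest peak, so the order of the first 2 was not resolved by counting. It was 6.38-fold and 6.23-fold over the local background. Its window has 2 copies of TTATCT, 30 and 4 bp to either side of the summit, and 3 matches to TTCNNNGAA, the spaced repeat bound by STAT5.

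The region's far edge held a cluster of tall peaks at +1001.5, +1008.4 and +1013.1 kb. The last of these had the most reads of any peak in replicate 1, 165 reads (4.07 RPM, interval 3.48 to 4.74), and 78 reads in replicate 2 (3.13 RPM, 2.47 to 3.90), with 6.94-fold and 6.57-fold over the local background. Over the whole peak replicate 2 was lower (two-sided exact binomial test, adjusted p = 0.0387), and this call too was lost with the excess spread allowed for. No GATA motif lay within 100 bp of its summit. At +1008.4 kb there were 121 reads (2.99 RPM) and 69 reads (2.76 RPM), with a TTATCA and a CTATCA. It was 4.06-fold and 5.07-fold over the local background, and so was not called when 5-fold was required in both libraries. Of the 10 tallest, 7 were.

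At +1001.5 kb there were 90 reads in replicate 1 (2.22 RPM) and 54 reads in replicate 2 (2.16 RPM). Here a TTATCA and an AGATAA share a base and run in opposite directions, TTATCAGATAA. Such overlapping inverted pairs lay within 100 bp of 2 of the 67 summits of the region and of 73 of all 23806 shared summits (0.307%). This peak is 1 of those 2, and the pair was not among the planned motifs, so the shares are not a measure of rarity.

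Of the other tall peaks downstream, that at +913.5 kb held 142 reads in replicate 1 (3.51 RPM) and 64 reads in replicate 2 (2.56 RPM), and replicate 2 was lower over the peak (two-sided exact binomial test, adjusted p = 0.0070), a call that was lost with the excess spread allowed for. The peak at +931.8 kb held 95 reads (2.35 RPM) and 66 reads (2.64 RPM). Neither had a GATA motif within 100 bp. The peak at +737.1 kb held 99 reads (2.44 RPM) and 49 reads (1.96 RPM), with TGATAA at 93 and at 63 bp from the summit and a motif on the other strand at 80 bp.

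On the upstream side, 11 of the 14 peaks lay in introns of the neighbouring genes and 1 of these was among the tallest. The other 3 were intergenic, at -19.4, -274.2 and -436.8 kb, and that at -436.8 kb held 57 reads in replicate 1 (1.41 RPM) and 27 reads in replicate 2 (1.08 RPM). *Taf3*, which encodes a subunit of the general transcription factor TFIID, held 6 shared peaks. That at -119.2 kb ranked 4 in the region, with 124 reads in replicate 1 (3.06 RPM, interval 2.55 to 3.65) and 81 reads in replicate 2 (3.25 RPM, 2.58 to 4.03), which is 7.83 and 7.31 times the local background (exact Poisson test, one-sided, p = 5.9e-66 and 1.25e-41). The libraries overlapped closely there, and no GATA motif lay within 100 bp of the summit.

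*Atp5c1*, a subunit gene of the mitochondrial ATP synthase, held 2 shared peaks. The one at -195.7 kb had 86 reads in replicate 1 (2.12 RPM) and 33 reads in replicate 2 (1.32 RPM). *Sfmbt2*, a Polycomb-group gene, held 2 low peaks, at -631.8 and -685.0 kb, and the second, at 28 and 14 reads, had 6 GATA motifs within 100 bp, the most of any summit in the region. *Itih5* held 1 within an intron, at -304.9 kb with 16 and 10 reads, and had another 721 bp before its start, at -274.2 kb with 26 and 23 reads. The intron peak of *Itih5*, the *Sfmbt2* peak at -631.8 kb with 16 and 10 reads, and the peak at +944.5 kb with 16 and 12 reads, tied for the lowest height of the region, 0.395 RPM. *Kin* and *Itih2* held none. Of the 67 peaks, 47 were intergenic by the annotation, and 6 lay in introns of *Gm13219*, which also had a peak 731 bp before its start with 84 reads in replicate 1 (2.07 RPM) and 40 reads in replicate 2 (1.60 RPM).

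In steps of 100 kb, the step from 500 to 600 kb downstream held the most, 10 shared peaks. In the genome, 15 of 27247 such steps (0.0551%) hold as many, with a mean of 0.874. This step was picked as the highest of the region's 20, so that share of single steps is not a measure of its rarity. Its read density was 3.11-fold over the mean in replicate 1 and 2.49-fold in replicate 2, the highest of the 20 steps in both. The 3 steps from 700 to 1000 kb upstream held 0 shared peaks, at 0.983-fold to 1.16-fold in replicate 1 and 0.840-fold to 1.04-fold in replicate 2. From 200 kb upstream to 400 kb downstream, every step was between 1.94-fold and 2.43-fold over the mean in both libraries.

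**Figure D4:**
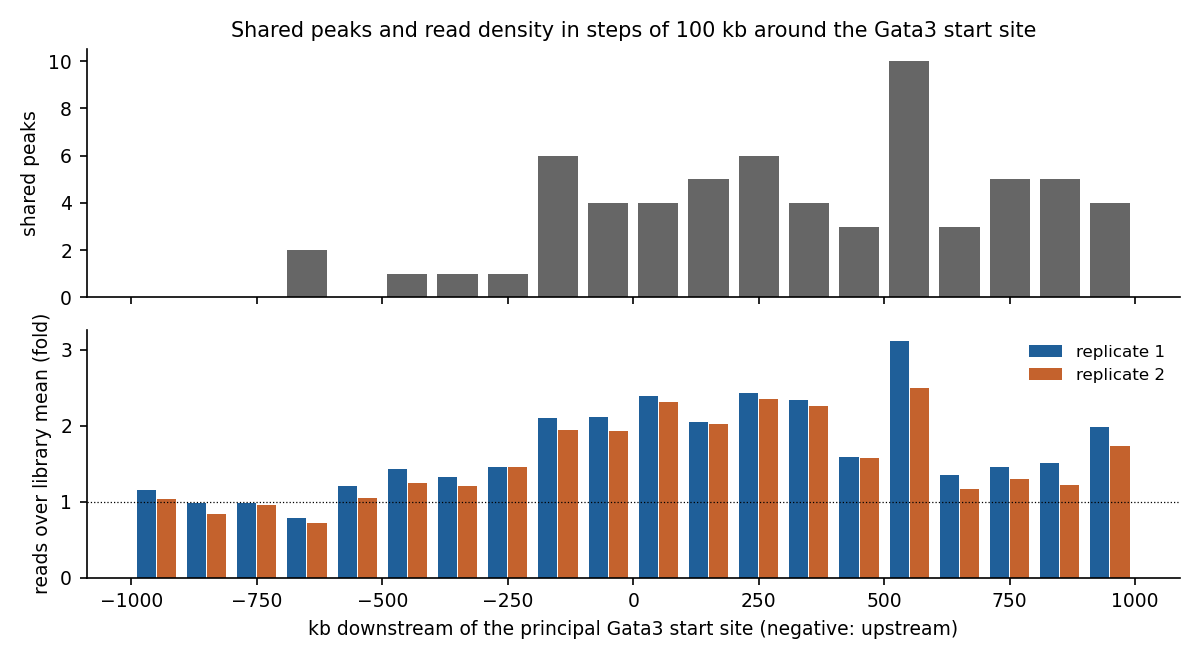
Number of shared peaks (top) and reads over the library mean, as a fold (bottom, replicate 1 in blue and replicate 2 in orange), in steps of 100 kb from the principal *Gata3* start site. The step from 500 to 600 kb downstream has 10 peaks and the steps beyond 700 kb upstream have none. The 3 peaks beyond 1000 kb downstream are outside the steps.

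By height, the 67 peaks as a group were close to all shared peaks. Their median was 0.881 RPM, against 0.801 RPM over the 23806 shared peaks, and they ran from 0.395 to 3.70 RPM. Of the 67, 37 were above the median of all and 5 were in the top 5%. The 5 peaks of the enhancer interval had a median of 1.85 RPM, the 3 of the gene body 1.76 RPM, and the 14 upstream 0.721 RPM.

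A GATA motif lay within 100 bp of 49 of the 67 summits, taken in replicate 1, or 73.1% (95% exact binomial interval 60.9% to 83.2%). This is near the 70.9% of all shared summits and above the 41.8% of windows of the same length 1 kb to either side. Over all shared peaks, 33.2% of such flanking windows held one, so the region's flanks were also richer in GATA motifs. Of the region's summits, 28 (41.8%) had 2 or more GATA motifs, against 25.6% of all shared summits. The motifs were centred a median of 44 bp from the summit. The 18 summits without a GATA motif were no lower, with a median height of 0.976 RPM against 0.881 RPM for the 49 with one, and 4 of the 10 tallest had none.

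Motifs of the partner factors were also counted within 100 bp. Both STAT-type repeats were more frequent than over all shared summits. TTCNNNGAA (STAT5 type) lay at 13 summits (19.4%), against 7.52% of all shared summits and 8.96% of the windows 1 kb to either side. TTCNNNNGAA (STAT6 type) lay at 9 summits (13.4%), against 5.92% of all shared summits and 7.46% of the flanking windows. Over all shared peaks, the flanking windows held the STAT5 type in 6.31% and the STAT6 type in 5.57%, each lower than in the region's flanks. Either was present at 22 of the 67 summits (32.8%), against 13.0% of all shared summits. They lay at 20 of the 50 downstream, 2 of the 14 upstream and 0 of the 3 in the body. The AP-1 motif, TGACTCA or its reverse complement TGAGTCA, lay at 7 summits (10.4%, against 12.3% overall), all of them downstream. RUNX (TGTGGT, 17.9% against 17.1%) and ETS (AGGAAG, 22.4% against 24.8%) were near their overall shares. A match to letters is a description and does not show that a factor bound there.

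Across the 10164 windows of 200 bp, the read counts of the 2 libraries had a Pearson correlation of 0.864 and a Spearman correlation of 0.552, and across 406 windows of 5 kb these were 0.961 and 0.894. The values are a description, since windows share their library and mappability. Of the 67 shared peaks, 55 (82.1%) were lower in replicate 2 when reads were counted over the whole peak and scaled to the library, against 65.98% of all shared peaks. The median log2 ratio of replicate 2 to replicate 1 over the whole peak was -0.33, against -0.18 for all. Over the genome, shared peaks held 7.07% of the reads of replicate 1 and 6.42% of those of replicate 2. By the RPM of the summit window, 48 of the 67 were lower in replicate 2. By the two-sided exact binomial test with adjustment over all shared peaks, 12 of the 67 (17.9%) differed, which is near the 15.2% of all shared peaks that did. Without adjustment 26 differed at 0.05, a level at which all shared peaks were not counted.

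Of the 12, 11 were lower in replicate 2. The largest fall was at +844.1 kb, with 69 reads in replicate 1 (1.70 RPM) and 17 reads in replicate 2 (0.681 RPM), a log2 ratio of -1.18 over the whole peak. The peak at +450.4 kb, with 18 reads (0.444 RPM) and 24 reads (0.962 RPM), was the only one of the 12 higher in replicate 2, with a log2 ratio of 1.55 over the whole peak. Scaled to the reads in shared peaks instead of all reads, 7 of the 67 differed, beside 2701 of the 23806 over the genome. Reads over shared peaks varied between the libraries by more than counting error across the genome (chi-square per degree of freedom of 3.71), and with that excess allowed for, 0 of the 67 and 10 of the 23806 differed. The read names carry 1 instrument in each library and 0 in common, and replicate 1 was the deeper (40526613 against 24970952 reads), so library, depth and run cannot be told apart.

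**Figure D5:**
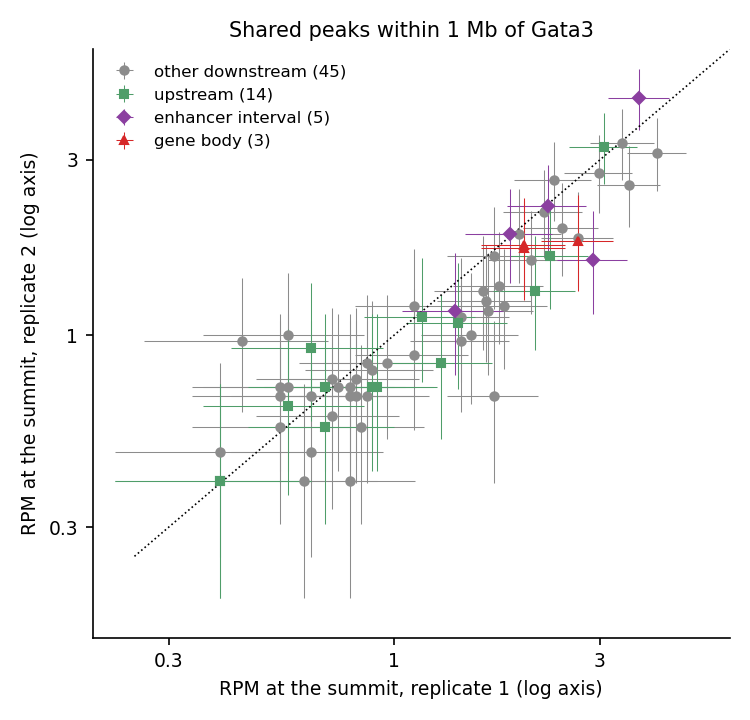
RPM at the summit in replicate 2 against replicate 1, on log axes, for the 67 shared peaks within 1 Mb of *Gata3*, with 95% exact Poisson intervals as bars and a dotted line of equal levels. Peaks are marked by place (3 in the gene body, 5 in the enhancer interval, 45 elsewhere downstream, 14 upstream), and 48 of the 67 lie below the line, that is, lower in replicate 2.

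Genes known to act upstream of or together with *Gata3* were examined as a list of 14, chosen with earlier results of these data known. The shares are thus a description and not a test. Of the 14, 11 had a shared peak in the body or within 2 kb of a start, against 33.4% of all protein-coding genes. The body count was also 11 (29.4% overall) and the start-site count was 7 (17.2% overall). *Rbpj*, which mediates Notch signals that raise *Gata3*, had 12 shared peaks over 191211 bp, the tallest at 4.99 RPM in replicate 1 and 5.45 RPM in replicate 2. *Zfpm1*, which encodes the GATA cofactor FOG-1, had 4, the tallest at 5.06 and 4.49 RPM. *Nfkb1*, an NF-κB subunit gene, had 7, the tallest at 3.53 and 3.97 RPM.

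Of the IL-4 and IL-2 pathways to *Gata3*, the receptor gene *Il4ra* and its transcription factor gene *Stat6* had none, while *Stat5a* had 1 (2.96 and 2.16 RPM) and *Stat5b* had 3. *Bhlhe41* also had none. *Gfi1*, a repressor gene induced in TH2 cells, had 1 peak, in its body and near its start. Its body density was 4.45-fold and 4.02-fold, that of *Zfpm1* 4.67-fold and 4.06-fold and that of *Nfkb1* 3.60-fold and 3.76-fold, beside 4.27-fold and 3.70-fold for *Gata3*. The remaining members, *Bcl11b* (2), *Runx3* (3), *Tcf7* (2), *Myb* (1) and *Notch1* (1), each had at least 1. These genes differ in length, and a long gene has more room for a peak.

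Within the GATA family, *Gata3* had the most shared peaks and the densest body. *Gata1* and *Gata2*, the blood-lineage members, had 1 each, at 0.691 and 1.04 RPM in replicates 1 and 2 for *Gata1* and at 1.31 and 0.881 RPM for *Gata2*. *Gata4* had 1 and *Gata5* had 0. *Gata6* had 1, near its start only, at 2.05 and 1.36 RPM. Within 1 Mb, *Gata3* had 67 shared peaks, against 17 to 32 for the other 5, and its body density of 4.27-fold and 3.70-fold stood above the 2.68-fold and 2.45-fold of *Gata2*, the next in both libraries. The order of the others was not the same in both libraries.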

How the data were processed

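According to the paper's methods and the submitters' processing notes, Bowtie2 2.3.5.1 placed the single-end reads on GRCm38, and the authors kept only uniquely placed reads and dropped duplicates. The notes also name MACS2 (2.1.2), but no peak list was used here. The authors deposited 1 line per read with its position, strand and mapping quality score, which is not a measure of binding. The score reached 44, more than Bowtie2 gives in end-to-end mode, although the methods state default settings, so how the reads were aligned is uncertain.

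All 40504814 and 24959052 reads on chromosomes 1 to 19, X and Y were used (means of 2.97 and 1.83 reads per 200 bp). Each read was moved 100 bp to its 3′ side, and 200-bp windows were placed every 50 bp. Each library was tested alone over the genome by an exact Poisson test (one-sided) at a q of 0.01 after Benjamini-Hochberg adjustment. Windows within 100 bp were joined, and peaks overlapping by 1 bp were called shared. The peak calling and the binomial test were tried on simulated Poisson and binomial counts. These lack the excess spread between the real libraries, so they do not test the calls under that spread. Since duplicates had been removed, a 200-bp window holds at most 400 reads.

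The named peaks are those in the gene body and within 10 kb of it, the enhancer interval, the 10 tallest and the lowest (the rule asked for 2, and 3 were tied), with the protein-coding neighbours and the listed genes. Peaks at -685.0, -436.8, -274.2, -195.7, +844.1, +450.4 kb and near *Gm13219*, and the 6 genes named beside *Gata3* for their count, were named after their values were seen. Members, lists and tests were chosen with earlier results of these data known. Python 3.11.15, NumPy 2.4.6, SciPy 1.17.1, pandas 2.3.3 and Matplotlib 3.10.9 were used.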

Additional observations from a re-analysis of the deposited data

How the results depend on the processing

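The 67 shared peaks within 1 Mb of *Gata3* became 19 at a q of 1e-10, 22 when 5-fold over the local background was required, 145 when tested against the library mean only, and 75 to 141 with either library alone. The 3 peaks of the gene body became 1 at 5-fold (intron 5), 2 with summits within 100 bp (intron 4 lost), 7 against the library mean and 3 to 5 in either library alone. The 5 of the enhancer interval became 2 at a q of 1e-10 (+299.1 and +313.9 kb), 0 at 5-fold, 12 against the library mean and 5 to 9 in either library alone. The local background includes a peak's own reads and, at +299.1 and +300.9 kb, those of the other, and its part in these losses was not tested. Thinning of replicate 1, summits within 100 bp, only reads of mapping quality 30 or more, and windows of 400 or 100 bp gave 50 to 69 peaks in the region. The share of summits with a GATA motif was 52.2% within 50 bp, 47.8% for AGATAA alone, and 70.9% to 74.7% in either library alone. The 12 peaks that differed between the libraries became 0 with over-dispersion allowed for and 7 when scaled to the reads in shared peaks. Over all shared peaks, 3619 became 10 and 2701. The 3.99-fold of the gene body became 3.43-fold with 10 kb added on each side, and was 3.70-fold to 4.27-fold by library. No paired analysis was possible because only 1 condition was measured. No input library was used, and how a local background from one would change the peaks was not tested.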

Other observations

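Replicate 1 alone had 74 further peaks in the region, of its 141 there, with 52 downstream, 2 in the gene body and 20 upstream. Over the genome, 23806 of the 71726 peaks of replicate 1 were shared, so the unshared part was larger than in the region. The 74 had a median of 0.543 RPM at the summit in replicate 1 and 0.280 RPM in replicate 2. The share of all windows of the region at 3-fold or more in replicate 2 was not counted. At 52 of the 74 peaks, the same window in replicate 2 was at least 3-fold over its library mean. Around the start of *Gata3*, these included a peak at -2.0 kb with 52 reads in replicate 1 (1.28 RPM) and 11 reads in replicate 2 (0.441 RPM), and a peak at -12.7 kb with 44 reads (1.09 RPM) and 12 reads (0.481 RPM). At -11.0 kb, close to the first annotated start, there were 30 reads (0.741 RPM) and 14 reads (0.561 RPM). At -14.2 kb there were 37 reads (0.913 RPM) and 4 reads (0.160 RPM), 2.18-fold over the replicate 2 mean, with 2 GATA motifs, and at +30 kb 24 reads (0.593 RPM) and 7 reads (0.280 RPM). Replicate 2 had 8 peaks in the region that replicate 1 lacked, of its 75 there. Over the genome it had 28204 peaks, beside the 23806 shared.

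Of the 10164 windows, 1070 (10.5%) held no read in either library. The longest run without a read was 20200 bp, at chr2:10479001-10499200, within *Sfmbt2*, where the annotation places a large cluster of miRNA genes. Of 202 stretches of 50 bases taken every 100 bases there, 174 (86.1%) have another exact copy on chromosome 2, against 1 of 330 in the *Gata3* body. The other 28 have no exact copy on chromosome 2 and were also without reads. Other chromosomes were not searched. In the enhancer interval, 800 bp from 311.2 to 312.0 kb downstream held no read, beside the tallest peak, and 3 of 8 such stretches there have another copy.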
